A study of Mus musculus with 10 samples.

Results

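Wfs1, Fibcd1, Mpped1, Man1a, Dcn and Spink8 are genes used in mice as markers of the pyramidal neurons of hippocampal area CA1, and the promoter mark H3K4me3 was followed over them in sorted CA1 neuronal nuclei. The members were given by name and located by symbol in the mouse RefSeq annotation, which holds all 6 of them among 21887 protein-coding genes. For each gene, peaks of H3K4me3 were measured in base pairs (bp) covered, in 3 places. These were a window of 2 kb to each side of the better covered gene end, the whole stretch of overlapping peaks found there, and other peaks inside the gene.

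The transgenic animals were male CamkdeltaC transgenic mice aged 3 months, which overexpress CaMKIIδC, a splice variant of a calcium-activated kinase and a transgene known from mouse models of heart failure. The controls were male littermates of the same age labelled wildtype. Each group has 4 H3K4me3 libraries, made from frozen CA1 tissue by sorting nuclei that carry the neuronal protein NeuN and precipitating 0.2 µg of chromatin with 1 µg of antibody. Reads were single ends of 50 bp, and 1 list of enriched intervals (peaks) was deposited per library. The promoter that drives the transgene is not given in the sources used here. The protocol text describes the histone deacetylase inhibitor vorinostat and a vehicle in the drinking water, but no library carries a drug label. Letter codes in the sample descriptions are crossed relative to the letters that name the peak lists. The group names of both match the titles, which were used. Whether each library stands for its own animal is not stated, so p-values here refer to the spread among these 8 libraries, and that spread may be technical.

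H3K4me3, histone H3 carrying 3 methyl groups on lysine 4, is deposited by the SET1 and MLL (KMT2) enzymes around the start sites of genes that are active or poised. The mark is favoured at unmethylated CpG islands, and broad domains of it often cover genes that define a cell's identity. Pyramidal neurons of CA1 are the excitatory output cells of the hippocampus proper, and they receive their main input from CA3. The 6 markers have unlike functions. Wfs1 encodes wolframin, a membrane protein of the endoplasmic reticulum that is mutated in human Wolfram syndrome. Man1a encodes a Golgi alpha-mannosidase that trims N-linked glycans. Fibcd1 encodes a membrane receptor with a fibrinogen-like domain that binds acetylated sugars, chitin among them. Mpped1 encodes a protein with a metallophosphoesterase domain. Dcn encodes decorin, a secreted small leucine-rich proteoglycan of the extracellular matrix that connective tissue also makes in quantity. Spink8 belongs to the Kazal-type serine protease inhibitors.

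The promoter sequences show which of the genes begin in CpG-rich DNA, the kind of sequence that most often carries this mark. RefSeq promoters of the build GRCm38.p6 were found for 4 of the 6 members, in 5 entries, since Mpped1 has 2 annotated starts. Dcn and Spink8 had no entry. Each sequence below is the 250 bases upstream of the annotated start, read in the direction of transcription, and capitals mark CpG dinucleotides. The positions are chr5:36988983-36989232 on the minus strand for Wfs1, chr2:31846006-31846255 on the minus strand for Fibcd1, chr10:54075738-54075987 on the minus strand for Man1a, and chr15:83779773-83780022 and chr15:83784579-83784828 on the plus strand for the Mpped1 starts.
Wfs1: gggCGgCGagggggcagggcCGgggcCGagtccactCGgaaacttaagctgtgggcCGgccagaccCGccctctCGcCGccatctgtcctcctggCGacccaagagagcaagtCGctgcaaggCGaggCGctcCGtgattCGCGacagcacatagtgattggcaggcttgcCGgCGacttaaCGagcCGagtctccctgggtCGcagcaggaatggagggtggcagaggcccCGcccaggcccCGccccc
Fibcd1: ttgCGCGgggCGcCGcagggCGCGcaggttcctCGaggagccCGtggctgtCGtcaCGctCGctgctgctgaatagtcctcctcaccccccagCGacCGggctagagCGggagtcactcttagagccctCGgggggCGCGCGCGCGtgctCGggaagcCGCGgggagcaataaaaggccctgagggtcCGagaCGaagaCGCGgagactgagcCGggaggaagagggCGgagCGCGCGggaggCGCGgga
Man1a: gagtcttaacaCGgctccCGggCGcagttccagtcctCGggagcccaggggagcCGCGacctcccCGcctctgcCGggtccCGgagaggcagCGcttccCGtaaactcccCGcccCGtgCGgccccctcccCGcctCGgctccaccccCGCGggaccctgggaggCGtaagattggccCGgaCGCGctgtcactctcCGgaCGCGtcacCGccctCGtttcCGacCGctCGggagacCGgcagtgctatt
Mpped1 start 1: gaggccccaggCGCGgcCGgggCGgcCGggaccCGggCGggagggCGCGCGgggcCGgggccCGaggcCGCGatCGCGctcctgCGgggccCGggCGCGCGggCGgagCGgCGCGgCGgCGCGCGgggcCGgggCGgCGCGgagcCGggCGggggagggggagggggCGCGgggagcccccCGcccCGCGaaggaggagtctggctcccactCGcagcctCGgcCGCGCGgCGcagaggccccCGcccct
Mpped1 start 2: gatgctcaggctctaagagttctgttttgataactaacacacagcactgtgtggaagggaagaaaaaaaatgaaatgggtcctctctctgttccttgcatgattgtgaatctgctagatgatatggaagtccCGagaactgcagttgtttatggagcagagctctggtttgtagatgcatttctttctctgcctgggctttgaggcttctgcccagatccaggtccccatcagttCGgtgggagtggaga

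The first 4 sequences are dense in CpG and the last is not. Wfs1 has 23 CpG in its 250 bases, Fibcd1 34, Man1a 31, the first Mpped1 start 47 and the second Mpped1 start 2. Over the whole promoter entry, which adds the first 50 bases downstream, the ratio of observed to expected CpG was 0.816 for Wfs1, 1.14 for Fibcd1, 0.966 for Man1a and 0.997 for the first Mpped1 start. The second Mpped1 start had a ratio of 0.185. The median ratio over 21263 promoter entries of protein-coding genes was 0.567. G and C made up 89.3% of the first Mpped1 entry and 70% of the Wfs1 entry. Short motifs were searched on both strands of each 300-base entry, and none of the searched motifs contains another. The GC box GGGCGG, which 46.2% of promoters hold, occurred 4 times in Wfs1, 2 times in Fibcd1, 2 times in Man1a and 9 times at the first Mpped1 start. The box CCAAT, held by 38.2% of promoters, occurred once each in Wfs1 and Man1a, and the E-box CAGATG, held by 14.6%, occurred once in Wfs1. The TATA box TATAAA, held by 12.6%, was in none of the 5 entries, and the second Mpped1 start held none of the 4 motifs. Across the genome, a peak in all 8 libraries was found at 91.6% of the 8453 genes with a ratio of at least 0.6, against 34.5% of the 9039 genes under 0.6.

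Peak numbers differed between libraries. The transgenic lists held between 60388 and 102285 peaks covering 45.2 to 57.7 Mb, and the control lists between 51903 and 66811 peaks covering 37.5 to 43.1 Mb. The first transgenic library stood apart with the most peaks and the largest covered length. The lists hold no reads, so the depth is unknown, and a library with more or wider peaks everywhere raises covered length at any gene. Breadth was therefore compared after centring each library on its own median. Centring removed a shift toward wider peaks in transgenic libraries of 0.0207 at gene ends, 0.1052 in peak regions and 0.0920 inside genes, on the log2 scale. Camk2d, the gene that encodes the kinase subunit, covered 1142 to 1590 bp of its window in transgenic libraries and 1322 to 1500 bp in control libraries (log2 −0.01 ± 0.09 SE; adjusted p = 1.00, limma), which does not check the transgene, since a peak does not measure its RNA.

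At the gene end, 4 of the 6 markers had a peak in all 8 libraries, beside 61.9% of all protein-coding genes, 5 had one in at least 4 libraries, beside 67.4%, and 1 had none in any library, beside 26.5%. Man1a, Fibcd1, Wfs1 and Mpped1 carried H3K4me3 over ranges that overlapped between transgenic and control libraries, Dcn carried little and unevenly, and no peak was called for Spink8. No marker's breadth passed the test. The other end of each gene had no covered base in any library. For the 4 genes with an annotated strand, the better covered end was the side where transcription starts, as it was for 11239 of 12888 protein-coding genes with a strand and cover.

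**Figure D1:**
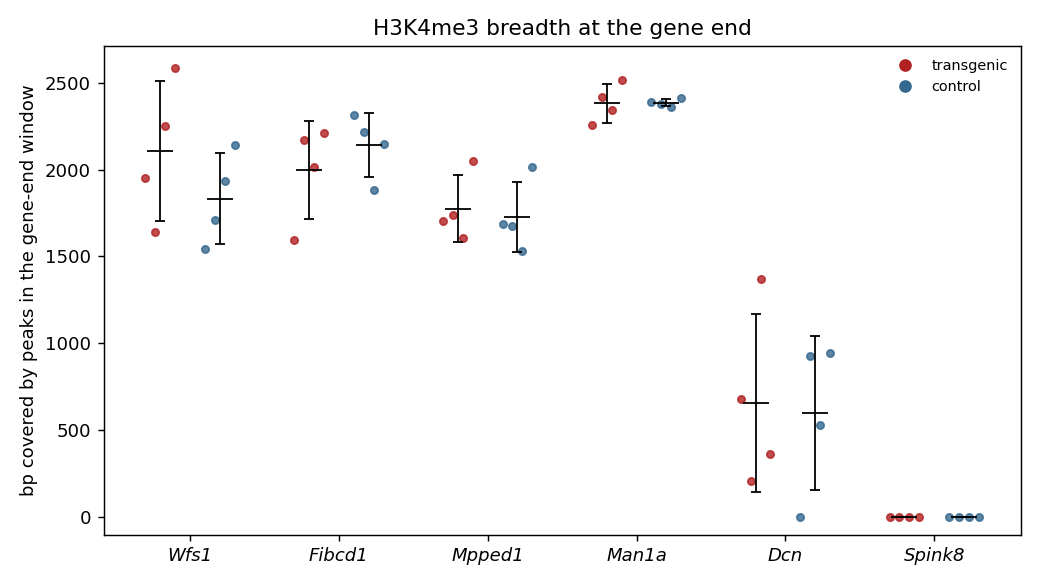
Base pairs covered by H3K4me3 peaks in the window of 2 kb to each side of the gene end (vertical axis) for the 6 CA1 marker genes, with transgenic libraries (red) left of control libraries (blue). Points are libraries, and bars are the mean and SD of 4 libraries. The groups overlap for each gene with a peak, and Dcn lies lower and is scattered. Man1a varies least inside this window, which cuts its longer peaks.

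Man1a, on the minus strand of chromosome 10 (54076616 down to 53904785), had the broadest mark of the 6. Its window was covered over 2254, 2417, 2341 and 2516 bp in transgenic libraries, against 2388, 2380, 2362 and 2415 bp in control libraries. The control values lay inside the transgenic range, and the coefficient of variation over all 8 libraries was 3.12%. In each library but the first transgenic one, a single peak filled the part of the window inside the gene. The window therefore limits how far this value can vary, and over the whole region the coefficient was 6.84%. Transgenic libraries averaged 2382 ± 111 bp and control libraries 2386 ± 22.0 bp (SD, 4 libraries a group). On the log2 scale the difference was −0.02 ± 0.05 (SE; 95% interval −0.13 to 0.08; limma adjusted p = 1.00). The window also overlaps the long non-coding RNA gene Gm16998, so a peak there cannot be assigned to Man1a alone.

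Fibcd1, on the minus strand of chromosome 2 (31846964 down to 31813290), was covered over 1593, 2172, 2012 and 2213 bp in transgenic libraries, against 2313, 2216, 1883 and 2146 bp in control libraries. The lowest value was in the first transgenic library, and apart from it the groups overlapped closely. Transgenic libraries averaged 1997.5 ± 283 bp and control libraries 2139.5 ± 184 bp (SD, 4 libraries a group). The log2 difference came to −0.12 ± 0.09 (SE; 95% interval −0.32 to 0.08; limma adjusted p = 1.00).

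Wfs1, on the minus strand of chromosome 5 (36988982 down to 36966104), was covered over 1949, 1639, 2252 and 2583 bp in transgenic libraries, against 1544, 1707, 1933 and 2143 bp in control libraries. The highest value was transgenic and the lowest was a control, with the rest of both groups interleaved. Transgenic libraries averaged 2106 ± 405 bp and control libraries 1832 ± 262 bp (SD, 4 libraries a group). Its log2 difference was 0.16 ± 0.12 (SE; 95% interval −0.10 to 0.43; limma adjusted p = 1.00).

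The window of Mpped1 (chromosome 15, 83779472 to 83858487, plus strand) was covered over 1703, 1740, 1607 and 2049 bp in transgenic libraries, against 1685, 1675, 1533 and 2014 bp in control libraries. The fourth library of each group was the highest of its group and the third the lowest, and the groups overlapped. Transgenic libraries averaged 1775 ± 191 bp and control libraries 1727 ± 204 bp (SD, 4 libraries a group). The log2 difference at Mpped1 was 0.02 ± 0.08 (SE; 95% interval −0.17 to 0.20; limma adjusted p = 1.00).

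The window of Dcn (chromosome 10, 97479500 to 97518163) was covered over 680, 208, 1367 and 361 bp in transgenic libraries, against 0, 928, 528 and 942 bp in control libraries. A peak was called in all 4 transgenic libraries and in 3 of 4 control libraries, and the widest and the narrowest non-zero values were both transgenic. Transgenic libraries averaged 654 ± 514 bp and control libraries 599.5 ± 443 bp (SD, 4 libraries a group). The log2 difference of 0.30 ± 0.76 had a 95% interval of −1.41 to 2.00 (limma adjusted p = 1.00), so a change of either sign by more than a factor of 2 lies inside it. Spink8, on chromosome 9 (109812203 to 109826628), had 0 bp at both ends in all 8 libraries and did not enter the fit. A peak list holds only intervals past the caller's threshold, so 0 bp is not a measured absence of the mark.

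In the fit over 14753 gene ends, 0 (0%) passed an adjusted p of 0.05, the 5 tested markers included. At an unadjusted p under 0.05 there were 608 gene ends (4.12%), none of them a marker's, and limma without the trended and robust variance called 5, again without a marker. For none of the 5 tested markers did the groups separate, against 1.86% of gene ends where all 4 transgenic libraries lay above all 4 control libraries and 0.481% where all lay below. Since NeuN-positive nuclei were precipitated in bulk, fewer nuclei with the mark and less mark per nucleus cannot be told apart.

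All windows have the same length, so breadth inside the window can be ordered across the genes. Peaks of Man1a, Fibcd1 and Mpped1 ran on past the window, which cuts them, so the order holds only inside it. Over the widest region, Mpped1 averaged 2725 bp and Wfs1 1979 bp, the reverse of their order in the window. Averaged over all 8 libraries, peaks covered 59.6% of the window at Man1a, 51.7% at Fibcd1, 49.2% at Wfs1, 43.8% at Mpped1 and 15.7% at Dcn. The ranges of Man1a (2254 to 2516 bp), Fibcd1 (1593 to 2313 bp), Wfs1 (1544 to 2583 bp) and Mpped1 (1533 to 2049 bp) overlap from each neighbour to the next, and neither Fibcd1 and Wfs1 nor Wfs1 and Mpped1 differ beyond the spread between libraries. The range of Dcn (0 to 1367 bp) overlaps none of them. The median of all tested gene ends was 1664 bp. Man1a stood at percentile 83.9 of the tested gene ends, Fibcd1 at 70.4, Wfs1 at 65.5, Mpped1 at 54.7 and Dcn at 11.4.

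Beyond the window, Man1a carried a far longer domain than the other markers. Its overlapping peaks of the 8 libraries joined into a region of 8465 bp (chromosome 10, 54068689 to 54077153) that reaches 7927 bp into the gene. The next longest was the 4200 bp region of Fibcd1 (chromosome 2, 31843077 to 31847276). The longer Mpped1 region spans 3328 bp (chromosome 15, 83780036 to 83783363), that of Wfs1 2754 bp (chromosome 5, 36986900 to 36989653) and that of Dcn 1277 bp (chromosome 10, 97479412 to 97480688). Among 72683 regions of the genome, the covered length of the Man1a region stood at percentile 99.9. Most of these regions are short, with a median cover of 195 bp. The widest regions of the other markers also ranked high, at percentile 98.4 for Fibcd1, 96.5 for Mpped1, 92.2 for Wfs1 and 72.9 for Dcn.

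**Figure D2:**
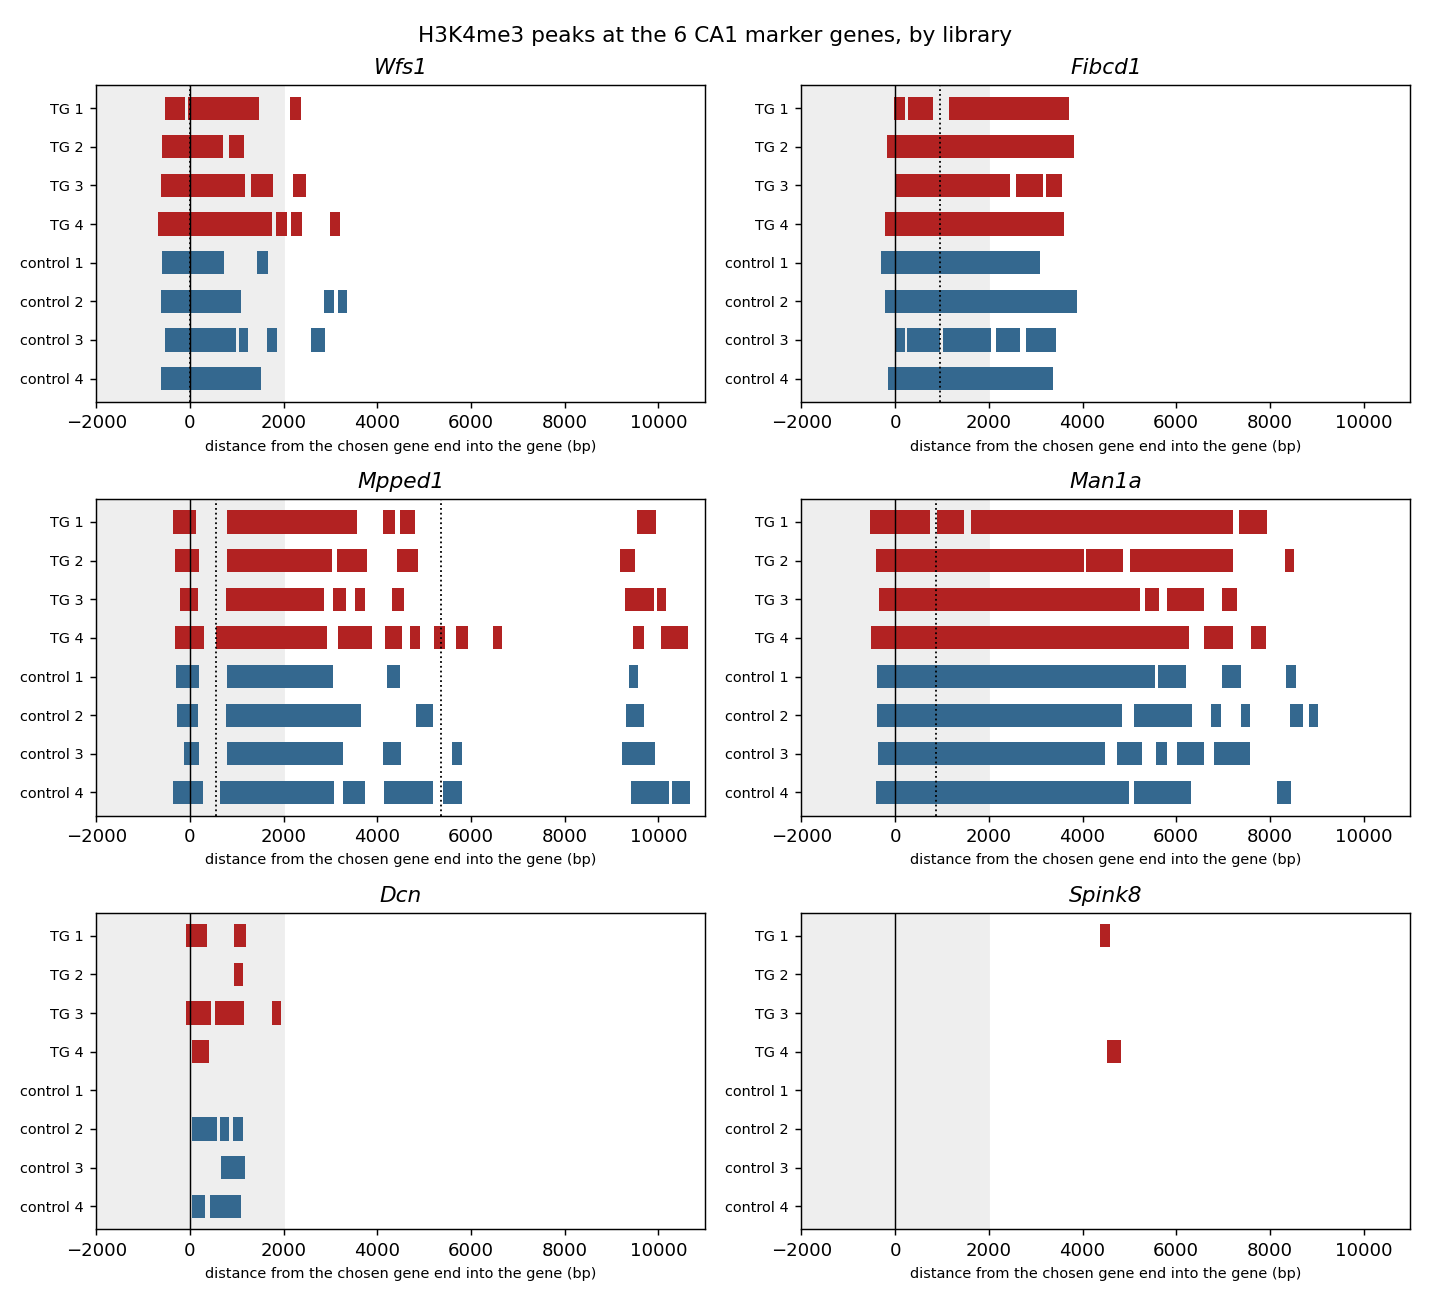
Peaks in each library at the 6 markers by distance from the chosen gene end into the gene (horizontal axis, bp), with transgenic libraries (TG, red) above control libraries (blue), the window shaded, the gene end as a solid line and annotated starts as dotted lines; Mpped1 has further inner peaks past the right edge. The marked region of Man1a runs far into the gene, Mpped1 has a gap in all 8 libraries just inside its end, and the Dcn peaks are short and missing from the first control library, while Spink8 has a peak in 2 transgenic libraries, inside the gene.

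The Man1a region was covered over 8057, 7414, 6974 and 7722 bp in transgenic libraries, against 6928, 6870, 6958 and 6611 bp in control libraries. All 4 transgenic values lay above all 4 control values, though the lowest transgenic value stood only just above the highest control value. Transgenic libraries averaged 7542 ± 461 bp and control libraries 6842 ± 158 bp (SD, 4 libraries a group), and the difference was 700 bp. Such a separation occurred at 3.26% of the 72683 regions and at 6.1% of the 836 regions whose mean cover was longer than a whole window, against 0.169% of regions with all transgenic libraries below. After centring, the log2 difference at Man1a was 0.03 ± 0.05 (SE; 95% interval −0.09 to 0.15; limma adjusted p = 0.978), and without centring it was 0.14 (adjusted p = 0.239). Without the first transgenic library the uncentred difference was 528 bp, the smallest value when each library was left out in turn, and the largest was 889 bp, without the third transgenic library.

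The separation lay in the part of the Man1a region outside the window. That part measured 5803, 4997, 4633 and 5206 bp in transgenic libraries, against 4540, 4490, 4596 and 4196 bp in control libraries, without overlap. It ends 7927 bp inward, at the edge of a peak of the first transgenic library. Short peaks further in, between 8150 and 9028 bp inward, were counted as inner cover. They measured 0, 200, 0 and 0 bp in transgenic libraries, against 200, 480, 0 and 299 bp in control libraries. Added to the region, they make the groups overlap. The region was made up of 4, 3, 4 and 3 peaks in the transgenic lists and 3, 4, 5 and 2 peaks in the control lists, so the longer cover did not go with a higher number of peaks in each library. Transgenic libraries also had the larger covered length genome-wide, and the part of that in the difference at Man1a was not tested beyond the centred fit.

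None of the other regions separated the groups. The Fibcd1 region was covered over 3312, 3983, 3372 and 3813 bp in transgenic libraries, against 3414, 4103, 3098 and 3505 bp in control libraries (log2 −0.07 ± 0.08 SE; adjusted p = 0.913, limma). The second library was the widest in each group. The Wfs1 region was as wide as its window value in 7 libraries and reached 2665 bp in the fourth transgenic library (log2 0.09 ± 0.11 SE; adjusted p = 0.928, limma). The longer Mpped1 region was covered over 2781, 2877, 2579 and 3087 bp in transgenic libraries, against 2250, 2874, 2461 and 2890 bp in control libraries (log2 0.01 ± 0.07 SE; adjusted p = 1.00, limma). The Dcn region was covered over 680, 208, 1167 and 361 bp in transgenic libraries, against 0, 928, 528 and 942 bp in control libraries (log2 0.16 ± 0.78 SE; adjusted p = 1.00, limma). Across the genome 35 regions (0.0482%) passed an adjusted p of 0.05, 33 of them wider (0.0454%) and 2 narrower (0.00275%) in transgenic libraries, and none was a region of a marker.

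At Mpped1 the mark was split around the annotated start. A small region of 665 bp (chromosome 15, 83779110 to 83779774) lay across the gene end, covered over 494, 528, 378 and 612 bp in transgenic libraries, against 487, 447, 332 and 652 bp in control libraries. Between it and the longer region, 261 bp (83779775 to 83780035) were free of peaks in all 8 lists, and this gap holds the first annotated start, at 83780023. The gap also takes in nearly all of the upstream sequence printed for that start. Its 250 bases were covered over 0, 0, 0 and 2 bp in transgenic libraries and over 0 bp in each control library. The corresponding 250 bases of Wfs1, Fibcd1 and Man1a were covered in full in each library but the first transgenic one, where 180, 101 and 123 bp were covered at Wfs1, Fibcd1 and Man1a in that order. The Mpped1 entry is also the richest of the 5 in G and C, at 89.3%, and the part of base composition in the gap was not tested. The CpG-poor second start of Mpped1 was covered over 0, 0, 0 and 156 bp of its 250 bases in transgenic libraries, against 0, 90, 0 and 72 bp in control libraries, mostly uncovered in both groups.

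Inside the genes, away from the gene-end regions, Mpped1 carried most of the remaining mark. Its inner peaks covered 966, 1013, 1615 and 3202 bp in transgenic libraries, against 1146, 1400, 1296 and 2647 bp in control libraries. The fourth library was the highest in each group, and the groups overlapped. They lay in 8 separate regions, of which 2 had a peak in all 8 libraries, from 4117 to 5196 bp and from 9187 to 10670 bp inward of the gene end. The first of these ends just before the second annotated start, which lies 5357 bp inward. The log2 difference of the inner cover was −0.12 ± 0.36 (SE; limma adjusted p = 1.00). Long non-coding RNA genes Gm52172 and Gm41370 lie within Mpped1, so inner peaks may belong to them.

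Fibcd1 had a single inner region (chromosome 2, 31822540 to 31823536), between 23428 and 24424 bp inward. It was covered over 461, 531, 593 and 619 bp in transgenic libraries, against 0, 427, 426 and 716 bp in control libraries. A peak was called in all 4 transgenic and in 3 control libraries, and the first control library had none. Transgenic libraries averaged 551 ± 70.4 bp and control libraries 392.25 ± 295 bp (SD, 4 libraries a group). The log2 difference was 0.65 ± 0.59 (SE; limma adjusted p = 0.909), which was 0.03 without the first control library.

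The other markers had little mark inside. Wfs1 had 249, 0, 272 and 425 bp in transgenic libraries, against 0, 400, 300 and 0 bp in control libraries, all within 3358 bp of the gene end (log2 0.35 ± 0.79 SE; adjusted p = 1.00, limma). Man1a had 0, 200, 0 and 0 bp in transgenic libraries, against 200, 480, 0 and 299 bp in control libraries, next to the inner edge of its long region. A Man1a peak there was called in 1 transgenic and 3 control libraries, and the log2 difference was −1.23 ± 0.66 (SE; 95% interval −2.74 to 0.29). In limma that gave an adjusted p of 0.822. Dcn had no inner peak in any library. Spink8 had 207, 0, 0 and 280 bp in transgenic libraries, against 0 bp in each control library, in a region 4380 to 4810 bp inward (chromosome 9, 109816583 to 109817013). That region also lies inside the overlapping protein-coding gene Gm51691. The difference of 122 bp gave p = 0.429 in an exact two-sided permutation test over the 70 assignments of libraries, whose smallest possible p is 0.0286. Inner peaks in at least 4 libraries were found for 4 of the 6 markers, beside 21.6% of all protein-coding genes. In the limma fit of inner cover over these 4726 genes, 0 (0%) passed, the 4 tested markers included, with 316 genes (6.69%) at an unadjusted p under 0.05, none a marker, and 9 called by limma without the trended and robust variance. For none of the 4 tested markers did the groups separate, against 4.32% of genes with all 4 transgenic libraries above and 0.402% with all below.

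**Figure D3:**
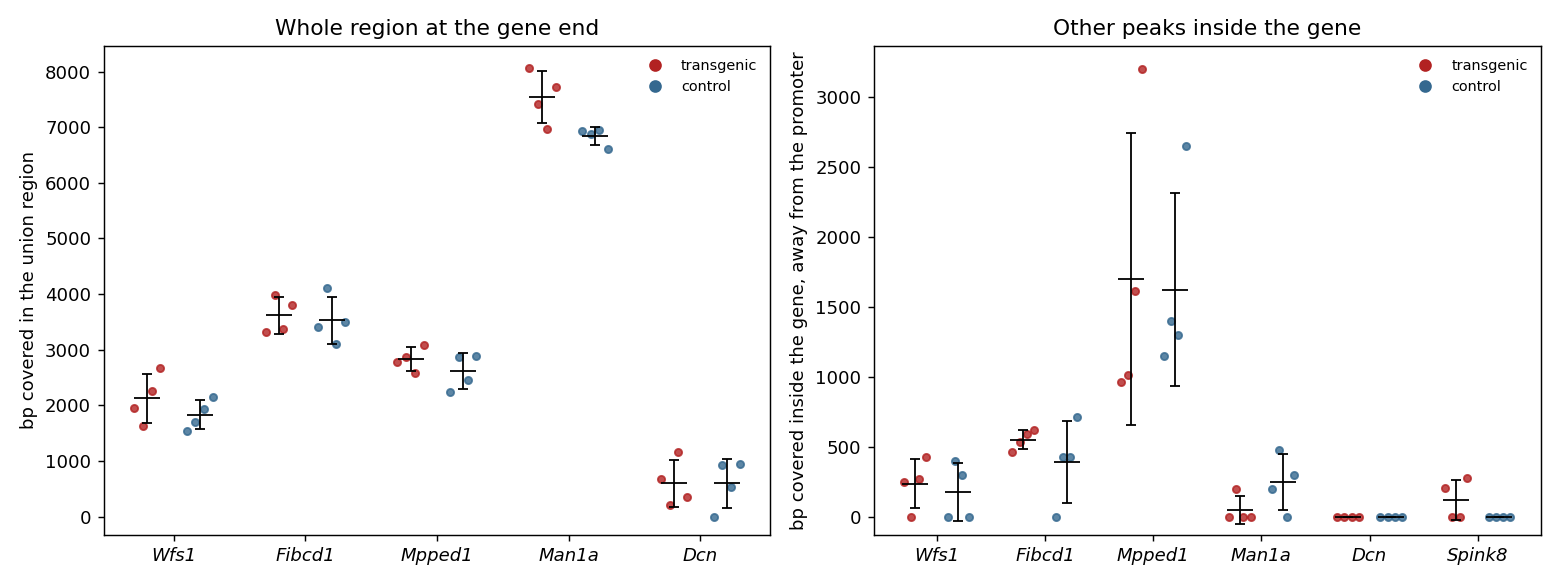
Base pairs covered in the widest region at the gene end and at other peaks inside the gene for the CA1 markers, per library, with transgenic libraries (red) left of control libraries (blue). The 4 transgenic values of the Man1a region, 6974 to 8057 bp, lie above the 4 control values, 6611 to 6958 bp, and the groups overlap elsewhere.

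Wfs1, Man1a, Mpped1 and Fibcd1 had strong peaks in each list, and Dcn had weaker ones. The deposited fold enrichment at the summit is the authors' own value for a peak and is used here only within its own list. At Wfs1 the strongest peak had a fold of 19.7, 35.8, 42.7 and 40.5 in transgenic lists, against 34.1, 32.3, 38.1 and 41.4 in control lists. Its rank lay between percentiles 87.2 and 94.2, above the rank of Fibcd1 in 7 of 8 lists. At Man1a the fold was 31.4, 37.0, 41.9 and 54.9 in transgenic lists, against 42.5, 38.0, 32.7 and 48.5 in control lists, at percentiles 88.7 to 98.0. Mpped1 lay at percentiles 83.2 to 95.1 and Fibcd1 at 81.0 to 91.1. Both upper values came from the first transgenic list, which holds the most peaks. The next highest were 88.0 for Mpped1 and 87.3 for Fibcd1, both in the fourth transgenic list. Dcn had the weakest peaks, with a fold of 7.29, 4.53, 6.24 and 6.53 in transgenic lists, against none, 6.55, 6.28 and 6.69 in control lists. Its percentiles of 20.7 to 73.8 lay below those of the other 4 markers in each list that had a peak.

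**Figure D4:**
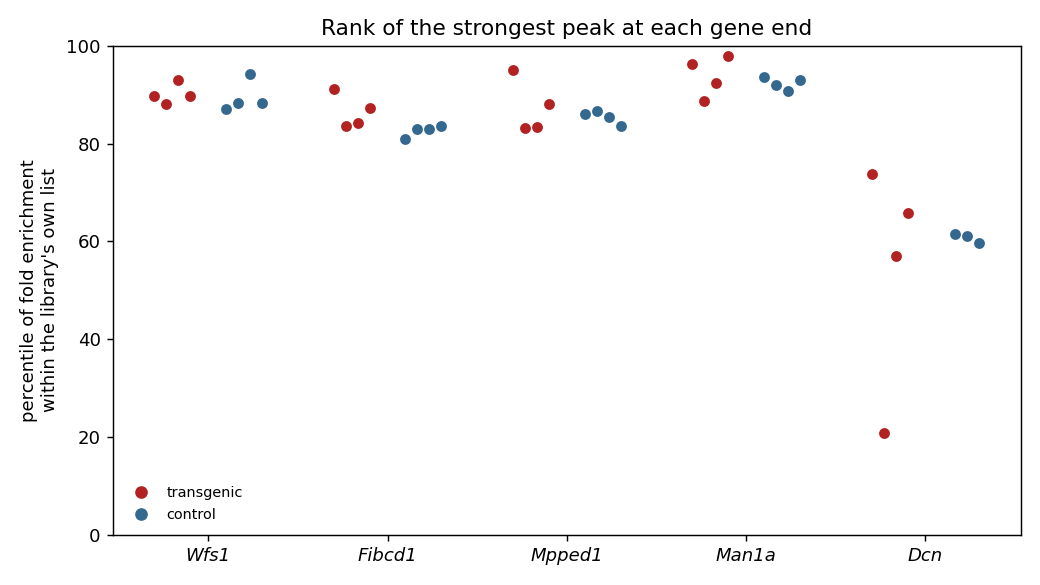
Percentile of the fold enrichment of the strongest peak at the gene end within the library's own list (vertical axis) for 5 CA1 markers, with transgenic libraries (red) left of control libraries (blue). Wfs1, Fibcd1, Mpped1 and Man1a rank above percentile 80 in each list, Dcn ranks between 20.7 and 73.8, and Spink8 has no peak to rank.

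The position of the summit was steadier at some markers than at others. At Wfs1 it lay between 211 and 271 bp downstream of the annotated start in all 8 libraries. At Mpped1 it lay 426 to 811 bp downstream of the first annotated start, on the far side of the gap. At Fibcd1 it lay between 149 bp upstream and 481 bp downstream of the annotated start, and at Man1a between 356 bp upstream and 1191 bp downstream. The ranges of the groups overlapped at each of these genes. At Dcn, for which no start is annotated in the table used, the strongest summit lay 202 to 1050 bp inward of the gene end.

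Markers of other cells were set beside the 6 genes as a check on the labelled cell type. The 8 general neuronal markers had a peak in all 8 libraries and a median breadth of 2683 bp over libraries, and 19 of 20 other genes of CA1 or pyramidal neurons did so too, with a median of 2496 bp. None of the 9 microglial markers had a peak in all 8 libraries and 6 had none anywhere, with a summed cover of 0 to 697 bp over transgenic libraries and 0 to 421 bp over controls. A peak in all 8 libraries was found for 5 of 9 astrocyte, 4 of 10 oligodendrocyte and 3 of 10 endothelial and mural markers. The medians for markers of neighbouring regions were 746 bp for CA2, 1473 bp for CA3, 1922.5 bp for the dentate gyrus and 1305 bp for the subiculum, and 1118.5 bp for interneurons. The median of the 6 CA1 markers was 1860 bp, so breadth at these genes does not by itself set CA1 apart from the dentate gyrus in these lists. In the same fit 3 of the 5 tested CA1 markers had a log2 difference above 0 and 2 below, beside 46.4% above and 53.6% below among all tested gene ends, with a median of 0.02, beside a median of −0.01 over all tested gene ends. The other CA1 and pyramidal genes had 10 above and 10 below, and no gene of any list passed (smallest limma adjusted p = 0.971).

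**Figure D5:**
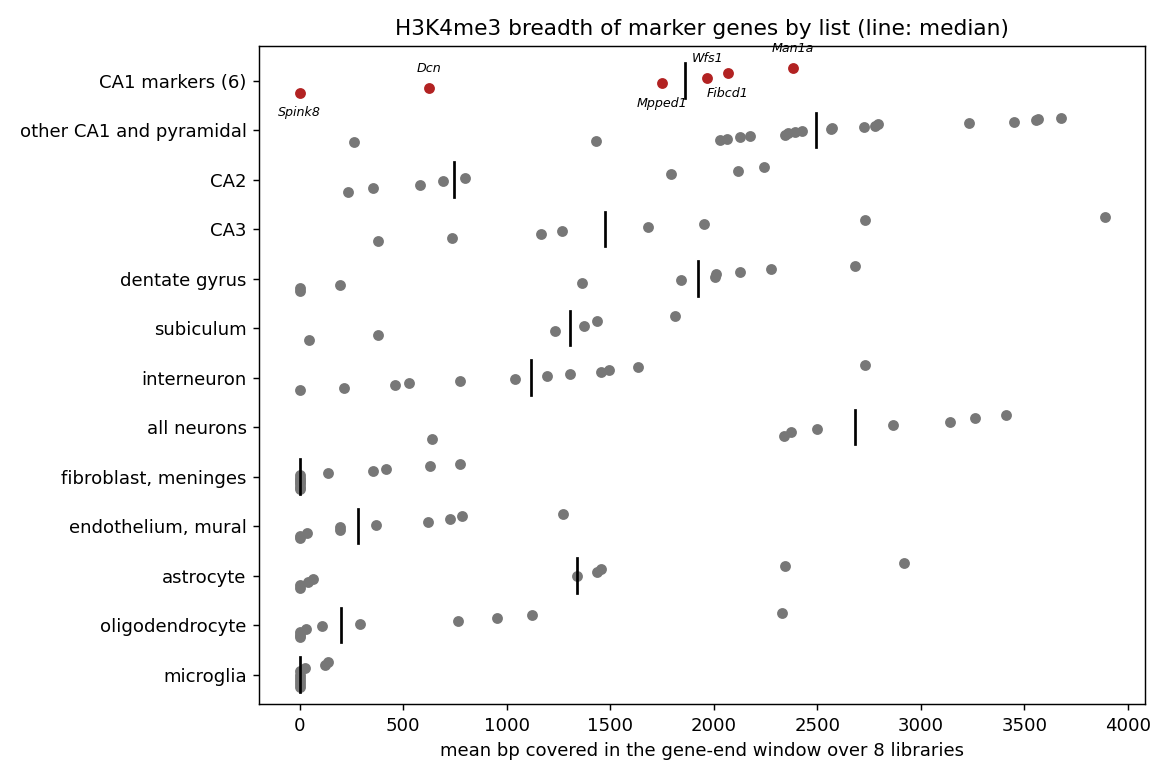
Mean base pairs covered in the gene-end window over 8 libraries (horizontal axis) for the 6 CA1 markers (red, named) and for marker lists of other cells (grey), with a vertical line at each list's median. Man1a, Fibcd1, Wfs1 and Mpped1 lie among the neuronal genes, while Dcn and Spink8 lie with the thinly covered genes.

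Among the wider CA1 list, Bcl11b, a zinc finger factor of projection neurons, averaged 3450 ± 476 bp over transgenic libraries and 3017 ± 417 bp over controls (SD, 4 libraries a group), 0.17 ± 0.08 apart in log2 terms (SE; limma adjusted p = 1.00).

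Because Dcn is also a fibroblast gene, markers of fibroblasts and meninges were listed with it. Of 12 such genes, 4 had a peak in all 8 libraries and 6 had none in any library, among them Col3a1, Lum and Ogn. Their summed cover was 1981 to 3598 bp over transgenic libraries and 1224 to 3225 bp over controls. Col1a1, which encodes a chain of type I collagen, averaged 907 ± 286 bp over transgenic libraries and 642 ± 250 bp over controls (SD, 4 libraries a group) (log2 0.43 ± 0.31 SE; adjusted p = 1.00, limma). The nuclei were sorted for NeuN, and the part of such cells in the Dcn peaks was not tested. Among the 19 relatives of Dcn and Spink8, small leucine-rich proteoglycans and Kazal-type inhibitors, 15 had no peak in any library, beside 26.5% of all protein-coding genes. A peak in all 8 libraries was found for 3 of them, namely Fmod, Prelp and Spink10, beside 61.9% of all protein-coding genes. Lum, Kera and Epyc, proteoglycans of the same family as decorin, were at 0 bp throughout.

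Genes linked to the well covered markers by family or disease mostly had a peak in all 8 libraries, beside 61.9% of all protein-coding genes. The Golgi and endoplasmic reticulum mannosidases Man1a2, Man1b1, Man1c1, Man2a1 and Man2a2 had a peak in all 8 libraries, as did Cisd2, which is mutated in a second form of Wolfram syndrome, and Mpped2, the closest relative of Mpped1. Fcna and Fcnb, ficolins with the same fibrinogen-like domain as Fibcd1, had none. Mpped2 was covered over 2017, 2296, 2451 and 2343 bp in transgenic libraries, against 2505, 2535, 2394 and 2612 bp in control libraries (log2 −0.16 ± 0.05 SE; adjusted p = 0.971, limma). Its groups overlapped, and Mpped1 itself differed by 0.02 on the same scale.

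The genes of the lists most like each marker were found by the root mean square difference of log2 breadth over the 8 libraries, among 147 candidates. Man1a was nearest to Map2, which encodes a dendritic microtubule protein, at 0.0434. Fibcd1 was nearest to Zbtb20, a transcription factor of CA1 neurons, at 0.108. Wfs1 was nearest to Man2a2 at 0.137, and Mpped1 to Pcp4, a calmodulin-binding protein used as a marker of CA2, also at 0.137. Dcn was nearest to Slc32a1, the vesicular transporter of inhibitory neurons, at 0.798, so no gene in the lists had a close match to its uneven cover. These likenesses describe covered length in shared libraries.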

How the data were processed

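H3K4me3 peak lists of 4 transgenic and 4 control libraries were used, and the 2 input or IgG samples were not analysed here. The submitters' processing notes name MACS2, Bowtie2 2.0.2, limma, deepTools 3.0.1, DiffBind, SAMtools 1.3.1 and FastQC 0.11.5, and the build mm10. Their roles, the settings and the background library were not given in the sources read. For each peak the authors deposited coordinates, a score, the summit's fold enrichment and offset, and p-values and q-values as −log10. The deposited scores are the whole part of 10 times the −log10 q-value, apart from 1 peak of 1 list. The smallest deposited −log10 q-values were 1.31 to 1.42.

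Peaks were merged within a library, which left their number unchanged. Gene positions came from RefSeq GRCm38.p6, the coordinates of mm10, in a table without exons; start sites came from the promoter entries. The window reaches 2 kb to each side of the gene end with the higher mean cover. Regions are unions of the 8 lists, formed from overlaps of 1 bp. Covered length entered as log2(bp + 100 bp). Each library was centred at the median of the features with peaks in all 8. The fits used limma 3.58.1 in R 4.3.3 (trended, robust) and Benjamini-Hochberg adjustment at 0.05, after a filter of a peak in at least 4 libraries for windows and gene insides and 2 for regions. Log2 differences on this scale understate changes of thinly covered genes. Scripts were tested on simulated data. Spink8 was tested inside the gene by exact permutation in SciPy 1.17.1. The members and lists were chosen with earlier results of these data known. All 6 members are named; each list names its 2 genes with the smallest p (4 for the wider CA1 and fibroblast lists), and other genes were named after their values were seen. The values of 1 gene that this rule names are not reported here. Same-numbered libraries did not deviate together, so the main fits carry no replicate block. Alternatives changed the pseudocount, centring, filter, variance model, q-value minimum, window, overlap and libraries used.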

Additional observations from a re-analysis of the deposited data

Results flagged for a closer look

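In 3 cases a value stood apart from the other libraries of their group by Dixon's test at the 95% level, among 48 sets of 4 libraries checked; chance marks about 1 in 20 such sets, and 3 of 4 libraries at 0 bp meet the limit with any single value. The inner cover of Mpped1 in the fourth control library was 2647 bp, against 1146, 1400 and 1296 bp in the other control libraries, and the fourth transgenic library was also the highest of its group. The inner cover of Man1a was 200 bp in the second transgenic library and 0 bp in the other transgenic libraries. The smaller Dcn region was covered over 200 bp in the third transgenic library and over 0 bp in the other transgenic libraries.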

How the results depend on the processing

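No alternative brought a marker past an adjusted p of 0.05: in 266 refits of the markers' values, adjusted p ranged from 0.239 to 1.00, and 241 kept the direction of the log2 difference. The 25 that turned were differences near 0 or of thinly covered genes. Fibcd1 turned to 0.01 with a 5 kb window, to 0.04 in its region without centring, and to −0.12 inside the gene with equal numbers of top-ranked peaks. Man1a turned to 0.03 with a 1 kb window. The Dcn region turned to −0.04 with a pseudocount of 500 bp and to −0.06 with quantile normalization. Leaving out each library in turn gave log2 ranges that cross 0 for Mpped1 (window −0.03 to 0.07, region −0.05 to 0.05, inside −0.44 to 0.09), Dcn (window −0.47 to 0.65, region −0.61 to 0.50), Wfs1 (region −0.01 to 0.20, inside −0.05 to 0.87), Fibcd1 (region −0.13 to 0.0031) and Man1a (region −0.02 to 0.07). Other values kept their direction without 1 library: the Wfs1 window lay between 0.09 (without the fourth transgenic library) and 0.27 (without the second), the Fibcd1 window between −0.18 and −0.06, the Man1a window between −0.05 and −0.0043, and the inner cover between 0.03 and 0.96 at Fibcd1 and between −1.74 and −1.08 at Man1a. The inner fit of Man1a could not be made without those libraries whose removal left it below the filter.

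Counts over all features moved more. Window calls numbered 0 in the main fit and 5 with ordinary variances. Region calls, 35 in the main fit, numbered 15 with a pseudocount of 10 bp, 118 without centring, 871 without the presence filter, 2 with a peak required in all 8 libraries, 296 with ordinary variances, 0 with equal numbers of top-ranked peaks, 302 with regions joined at 100 bp of overlap, and 15 to 54 without 1 library. Inner calls, 0 in the main fit, numbered 1 with a pseudocount of 10 bp, 2 without centring, 4 with quantile normalization, 2 without the filter, 1 with a peak in all 8, 9 with ordinary variances, 2 with a −log10 q of at least 3, 2 with both gene ends left out, and 0 to 4 without 1 library. With the replicate block, region calls numbered 0, as did window and inner calls; the correlations of same-numbered libraries were −0.0632, −0.129, −0.162 and 0.166, so the numbers were not taken as pairs, and only the fourth transgenic library correlated best with its own number. The Spink8 difference of 122 bp ranged from 69.0 to 162.3 bp without 1 library. Without reads, the depth that limits the short Dcn and Spink8 peaks is unknown.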
